A study of Mus musculus with 2 samples.

Results

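The variable (V) gene segments of the T cell receptor were taken as every gene row of the deposited count tables whose name begins with Trav, Trbv, Trdv or Trgv. There were 170 such rows among 34745: 128 for the alpha chain (Trav), 35 for the beta chain (Trbv), 6 for the delta chain (Trdv) and 1 for the gamma chain (Trgv2). Of these, 86 had 10 or more counts summed over both libraries and were compared, 61 Trav, 22 Trbv, 2 Trdv and Trgv2. Each was expressed as a share, the segment's counts as a percentage of all V counts of its locus in the same library. The rule used names and summed counts and no difference between the libraries, but it was set with earlier results of these data known. The nearest Trav rows on either side of the count minimum were Trav6d-3, with 6 wild-type and 5 knockout counts, and Trav1, with 3 and 6.

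The study sequenced RNA from splenic regulatory T cells, sorted as CD4+ Foxp3 (YFP)+ from C57BL/6 mice at 2 weeks of age. The wild-type group was poh1+/+ Foxp3Cre+ and the knockout group poh1fl/fl Foxp3Cre+, so both carried the Cre recombinase and its YFP marker. Cre expressed from Foxp3 acts in cells that express Foxp3, so the deletion is not expected in other cells of the animal. Poh1 is an older name of Psmd14, the deubiquitinase of the proteasome lid. Each genotype was 1 library, and the labels do not say whether mice were pooled. There is therefore no replicate check: no test could be made, and every interval given is a 95% interval for counting error alone, computed as if reads were independent molecules.

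T cell receptor chains are assembled in developing T cells, when the RAG recombinase joins 1 V segment to a joining (J) segment, with a diversity (D) segment between them in beta and delta chains. The joined exon is then spliced to a constant region, Trac in alpha chains and Trbc1 or Trbc2 in beta chains. A cell thus transcribes mainly the V segments it has joined. In RNA from many cells the share of a V segment reflects how many cells use it and how much receptor RNA they hold. In bulk RNA, fewer cells using a segment and less RNA per cell cannot be told apart. The delta locus lies inside the alpha locus, and some V segments, marked dv in their names, can join to either chain.

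The Trav rows span chr14:52427928-53977678 in GENCODE M21 coordinates (GRCm38, mm10), interleaved with Trdv segments, and the Trbv rows span chr6:40891229-41558452. In C57BL/6 mice part of the alpha locus is duplicated, and the letters d and n mark segments of the copied blocks. The sequences that follow, all from GENCODE M21 transcripts and read 5′ to 3′ on the + strand, are those on which the differences between libraries and the limits of the counts turn. The first 3 are the ends of the Trav16 copies, at chr14:53743466-53743705, chr14:53351382-53351621 and chr14:53047582-53047821, with bases that differ from Trav16 in capitals.
Trav16: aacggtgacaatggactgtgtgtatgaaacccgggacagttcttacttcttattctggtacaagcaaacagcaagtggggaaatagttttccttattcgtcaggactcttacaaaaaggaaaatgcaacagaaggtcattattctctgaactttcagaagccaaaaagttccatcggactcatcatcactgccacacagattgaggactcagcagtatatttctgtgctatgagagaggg
Trav16n: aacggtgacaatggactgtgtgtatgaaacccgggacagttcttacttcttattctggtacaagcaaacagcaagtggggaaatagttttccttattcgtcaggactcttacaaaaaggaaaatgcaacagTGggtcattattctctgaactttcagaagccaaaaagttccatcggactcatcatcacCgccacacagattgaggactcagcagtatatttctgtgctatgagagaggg
Trav16d-dv11: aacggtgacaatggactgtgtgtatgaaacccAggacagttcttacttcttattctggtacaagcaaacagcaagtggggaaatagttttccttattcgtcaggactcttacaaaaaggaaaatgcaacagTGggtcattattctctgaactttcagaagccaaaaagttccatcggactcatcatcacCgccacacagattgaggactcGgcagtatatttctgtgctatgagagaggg
Over these 240 bases Trav16n differed from Trav16 at 3 positions and Trav16d-dv11 at 5. Over the whole coding sequence the identity to Trav16 was 97.7% for Trav16n and 96.6% for Trav16d-dv11.

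The Trav15 segments follow, because both members that had counts took a larger share in the knockout library. Each is set above its most similar copy, with differing bases in capitals, at chr14:53560068-53560247, chr14:53174717-53174896, chr14:53649815-53649994 and chr14:52957221-52957400.
Trav15-1-dv6-1: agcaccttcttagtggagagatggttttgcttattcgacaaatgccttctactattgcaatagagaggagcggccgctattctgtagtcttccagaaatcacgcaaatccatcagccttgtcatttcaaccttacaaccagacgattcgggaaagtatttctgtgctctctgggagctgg
Trav15n-1: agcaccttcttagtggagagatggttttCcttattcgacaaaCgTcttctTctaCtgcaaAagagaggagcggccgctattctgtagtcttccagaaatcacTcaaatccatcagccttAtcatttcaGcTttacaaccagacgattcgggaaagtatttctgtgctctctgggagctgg
Trav15-2-dv6-2: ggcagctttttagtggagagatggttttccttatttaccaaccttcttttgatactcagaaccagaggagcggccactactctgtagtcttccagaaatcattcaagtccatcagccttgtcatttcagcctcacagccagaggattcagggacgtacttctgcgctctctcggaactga
Trav15d-2-dv6d-2: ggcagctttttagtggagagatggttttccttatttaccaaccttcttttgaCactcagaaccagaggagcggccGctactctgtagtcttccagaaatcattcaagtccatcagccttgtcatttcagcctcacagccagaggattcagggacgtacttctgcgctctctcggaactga
The first pair differed at 10 of these 180 bases and the second at 2. All 7 other Trav15 rows had 0 counts in both libraries.

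Trav14-1 was the other alpha segment whose share was larger in the knockout library with an interval wholly beyond 1.5-fold. It is shown with Trav14-2, the alpha segment with most counts in the wild-type library. They lie at chr14:53554379-53554558 and chr14:53641046-53641225, and capitals mark the 11 bases that differ.
Trav14-1: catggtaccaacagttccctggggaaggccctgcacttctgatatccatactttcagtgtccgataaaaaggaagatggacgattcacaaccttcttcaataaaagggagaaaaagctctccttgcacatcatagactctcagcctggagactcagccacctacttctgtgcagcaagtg
Trav14-2: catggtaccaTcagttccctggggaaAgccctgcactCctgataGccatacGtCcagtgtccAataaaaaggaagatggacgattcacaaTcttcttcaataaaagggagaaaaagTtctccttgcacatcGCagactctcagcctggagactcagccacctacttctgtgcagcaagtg
The share of Trav14-1 was larger in the knockout library and that of Trav14-2 smaller.

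Trav11 and Trav11d encode the alpha chain V region of the semi-invariant receptor of natural killer T (NKT) cells. Their ends, at chr14:53519769-53519858 and chr14:52824823-52824912, were identical.
Trav11: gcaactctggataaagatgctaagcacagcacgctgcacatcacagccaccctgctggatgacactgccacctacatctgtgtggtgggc
Trav11d: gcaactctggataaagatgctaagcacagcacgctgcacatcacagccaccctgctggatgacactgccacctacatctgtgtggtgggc
A read from either copy would match both.

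For the beta chain, the ends of Trbv14 and Trbv3 are given, at chr6:41135527-41135616 and chr6:41048739-41048828. Trbv14 had the lowest share ratio among the compared Trbv segments and Trbv3 had the most counts. Capitals mark the last in-frame TGT codon, which encodes the conserved cysteine where the hypervariable CDR3 loop begins.
Trbv14: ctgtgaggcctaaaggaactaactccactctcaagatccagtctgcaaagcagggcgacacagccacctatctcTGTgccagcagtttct
Trbv3: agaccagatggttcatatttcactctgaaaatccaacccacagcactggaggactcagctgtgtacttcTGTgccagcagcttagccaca
Unlike the alpha copies, neither shares a stretch of 50 bases with a transcript of another gene.

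How similar copies are bears on which rows could receive counts, since reads that match several genes equally may be dropped or misassigned in counting. Of the 128 Trav segments, 42 had no stretch of 50 bases that was absent from the transcripts of all other genes, and 41 of these had 0 counts in both libraries. The remaining one, Trav13n-3, had 5 and 2 counts. Among the other 86 Trav segments, 15 had 0 counts in both libraries. With stretches of 75 bases the corresponding numbers were 41 segments, of which 40 were at 0, and 16 of the other 87. In the blocks marked d, 25 of 39 rows were at 0, and in those marked n 21 of 34, against 10 of 55 rows without a letter. A count of 0 for such a copy therefore does not show that the segment is unused. The beta locus has few such copies: in 28 of 35 Trbv rows every 50-base stretch was found in no other gene, and the 8 Trbv rows at 0 were all annotated pseudogenes. Trbv4 and Trbv5 share sequence with the overlapping gene 5830405F06Rik, and their counts are uncertain for that reason.

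**Figure D1:**
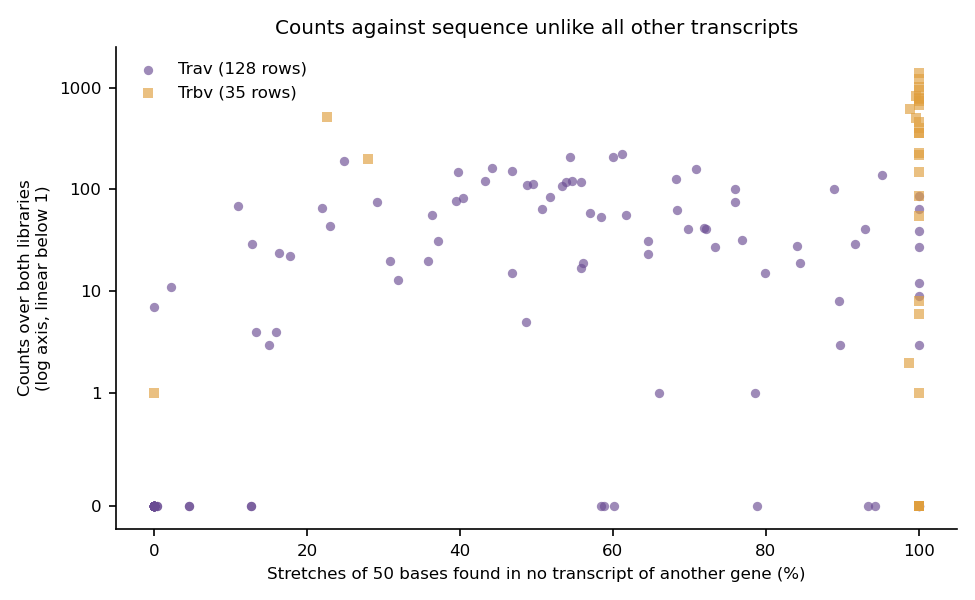
Counts summed over both libraries (vertical, log axis that is linear below 1) against the percentage of a segment's 50-base stretches found in no transcript of another gene, 1 point per Trav (128) or Trbv (35) row. Of the 42 Trav rows at 0% on the horizontal axis 41 lie at 0 counts, while most Trbv rows lie at 100%.

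The libraries held 18124611 counts (wild type) and 14544212 counts (knockout). Levels are in CPM, after TMM adjustment of the library sizes, and ratios are knockout over wild type. The deleted gene, Psmd14, gave 1619 wild-type and 463 knockout counts and a ratio of 0.356 (0.321 to 0.395). A gene or segment is called higher or lower where the whole interval of its ratio lies beyond 1.5-fold. As background, of the 13464 genes reaching 1 CPM in either library 9.58% were called higher and 12.3% lower. The sort markers Foxp3, at 671 and 1073 CPM, and Cd4, at 688 and 724 CPM, were abundant in each library. Of the 5 fixed regulatory T cell markers 2 were called higher, Foxp3 and Il2ra (990 and 1530 CPM), and 2 lower, Ctla4 (1120 and 703 CPM) and Ikzf2 (825 and 526 CPM). Among markers of other cells, all 5 B cell genes were lower in the knockout library (summed 110 and 28.3 CPM), and both CD8 genes were higher (18.8 and 47.4 CPM). Of measured thymocyte genes 2 of 5 were called lower, and of mucosal-associated invariant T cell genes 2 of 3, with 0 higher in either list. Of 4 measured NKT cell genes 0 were called, and the gamma-delta T cell list is given below. The part of these cells in the results was not tested.

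Alpha chain transcripts were lower and beta chain transcripts slightly higher in the knockout library, from V segments through constant regions. Trav counts were 2914 in wild type and 1607 in knockout, 161 and 111 CPM, a ratio of 0.687 (0.646 to 0.730). Trac, the alpha constant region, gave 9801 and 5737 counts, 541 and 394 CPM, a ratio of 0.729 (0.706 to 0.753). The intervals of V segments and constant region overlap, and both lie below 1.

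Trbv counts were 6563 and 5947, 362 and 409 CPM, a ratio of 1.13 (1.09 to 1.17). Trbc1 gave 2673 and 2450 counts and Trbc2 gave 7290 and 7256. Their ratios were 1.14 (1.08 to 1.21) and 1.24 (1.20 to 1.28), the same side of 1 as the V segments. The Trbc1 interval overlaps that of the V segments, while the Trbc2 interval lies above it. Summed, Trbc1 and Trbc2 had a ratio of 1.21 (1.18 to 1.25), also above the interval of the V segments. The joining segments, which lie between V and constant region in the transcript, had fewer counts. Traj segments had 219 and 145 counts and a ratio of 0.825 (0.664 to 1.02), an interval that includes 1. Trbj segments had 358 and 406 counts and a ratio of 1.41 (1.22 to 1.63).

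None of these sums was called at 1.5-fold. Among the 13464 genes, 21.1% had a ratio at or below that of Trav and 24.3% at or below that of Trac, while 37.9% lay at or above Trbv. These shifts were thus within the range in which many genes of these libraries lay. The alpha to beta balance differed all the same: there were 98.4 Trac counts per 100 Trbc counts in wild type and 59.1 in knockout, and 44.4 Trav counts per 100 Trbv counts against 27.0. Within a chain the balance of V to constant region differed less. There were 29.7 and 28.0 Trav counts per 100 Trac counts, and 65.9 and 61.3 Trbv counts per 100 Trbc counts. These are ratios of counts, not scaled by length. The choice between the beta constant regions also differed little, with 26.8% (26.0 to 27.7) of Trbc counts from Trbc1 in wild type and 25.2% (24.4 to 26.1) in knockout.

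The invariant chains that carry the receptor to the cell surface lay on both sides of 1. The fixed list of the receptor complex holds them with Trac, Trbc1, Trbc2, Cd4 and Ptcra, 9 genes of which 8 were measured. Of these 0 were called in either direction, beside 9.58% higher and 12.3% lower over the 13464 genes, and the list's median log2 ratio was 0.01 beside -0.01. Cd3d had a ratio of 0.950 (0.897 to 1.01) and Cd3e 0.969 (0.931 to 1.01). Cd3g, a further CD3 subunit, lay lower at 0.786 (0.756 to 0.817), and Cd247, the zeta signalling chain, lay higher at 1.31 (1.26 to 1.37). Ptcra, the surrogate alpha chain of immature thymocytes, had 0 and 1 counts.

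**Figure D2:**
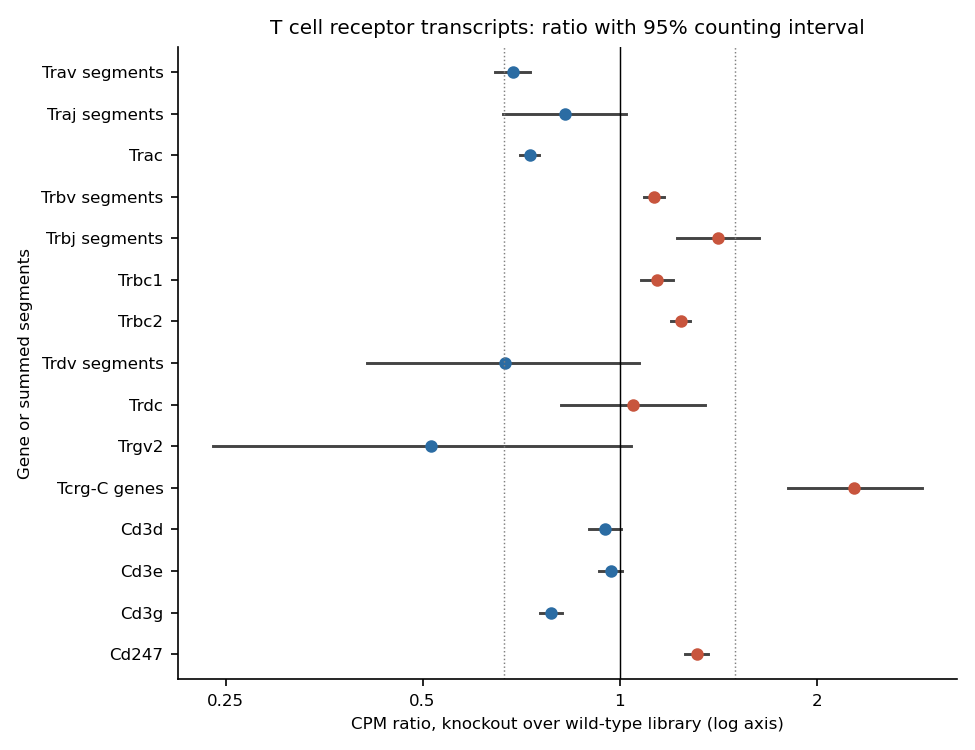
Ratio of CPM, knockout over wild-type library (horizontal, log axis), for receptor genes and sums of segments, 1 library per genotype. Points are ratios and bars 95% counting intervals. Blue points lie below 1 and red points above, and dotted lines mark 1.5-fold. Trav and Trac lie near 0.7, the beta chain genes above 1, and the summed gamma constant genes beyond the upper dotted line.

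Segment by segment the alpha locus was lower across most of its members. The level (CPM) ratio was below 1 for 50 of the 61 compared Trav segments, with a median log2 ratio of -0.61. Over the 5124 genes in the same range of counts the median was -0.05 and 52.2% lay below 0. By level, 0 Trav segments were called higher and 6 lower, where 10.2% and 14.5% of those 5124 genes were called. The 6 were Trav7d-4, Trav16d-dv11, Trav13d-4, Trav14-2, Trav6-7-dv9 and Trav21-dv12. Beta segments went the other way, with 16 of 22 above 1 and a median of 0.22, beside -0.03 over 6936 genes in their count range. The background there was 9.23% higher and 14.0% lower, and 1 Trbv segment, Trbv24, was called higher and 0 lower.

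Beta segments ranked nearly alike by share in both libraries, though single shares differed. Of the 22 compared, the share ratio interval lay wholly above 1 for 7 and wholly below 1 for 4. Shares correlated across the 22 segments with Spearman's rho of 0.963 and Pearson's r of 0.950, a description across segments that share the same libraries. Trbv3 held the largest share of counts in wild type, 805 of 6563 or 12.3% (11.5 to 13.1), and 585 of 5947 or 9.84% (9.09 to 10.6) in knockout. Its share ratio was 0.802 (0.720 to 0.893), wholly below 1 but not beyond 1.5-fold. Trbv19 held 608 counts in wild type and 617 in knockout, shares of 9.26% and 10.4%, and was the segment with most counts in the knockout library.

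Per length, in the authors' FPKM, Trbv3 was highest in wild type at 97.6, ahead of Trbv16 at 78.7, Trbv13-2 at 75.5 and Trbv20 at 72.0. In knockout Trbv15 was highest at 91.8 FPKM, ahead of Trbv3 at 88.4, Trbv16 at 75.2 and Trbv19 at 74.95. The order near the top therefore depended on the library and on scaling by length. Trbv15 had 446 and 494 counts, a share ratio of 1.22 (1.07 to 1.39), and Trbv1 had 350 and 388, also 1.22 (1.06 to 1.42). Trbv16 had 568 and 435 counts, 0.845 (0.744 to 0.959), and Trbv13-2 had 465 and 362, 0.859 (0.747 to 0.988). Trbv20 and Trbv2 had intervals that include 1, with share ratios of 0.894 (0.775 to 1.03) and 0.986 (0.854 to 1.14).

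Trbv14 was the 1 beta segment called by share, 4.55% of the 22 compared, and 0 were called higher. Over the 6936 genes in their count range, 9.23% were called higher and 14.0% lower, by level and not by share. Trbv14 lies at chr6:41135145-41135616 and carried the older name Tcrb-V13. It had 150 of 6563 Trbv counts in wild type, 2.29% (1.94 to 2.68), and 67 of 5947 in knockout, 1.13% (0.874 to 1.43). The share ratio was 0.493 (0.364 to 0.662). By level it went from 8.28 to 4.61 CPM, a ratio of 0.556 (0.411 to 0.747) whose interval reaches inside 1.5-fold, so that call was lost on the level scale. Neighbouring segments did not share the difference: Trbv13-3, next before it among those compared, held 4.05% and 3.92% of counts, and Trbv15, next after it, was higher in share. Trbv24, annotated as a pseudogene, had 16 and 39 counts, shares of 0.244% and 0.656%, and a ratio of 2.69 (1.47 to 5.16) whose lower bound just missed the call.

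**Figure D3:**
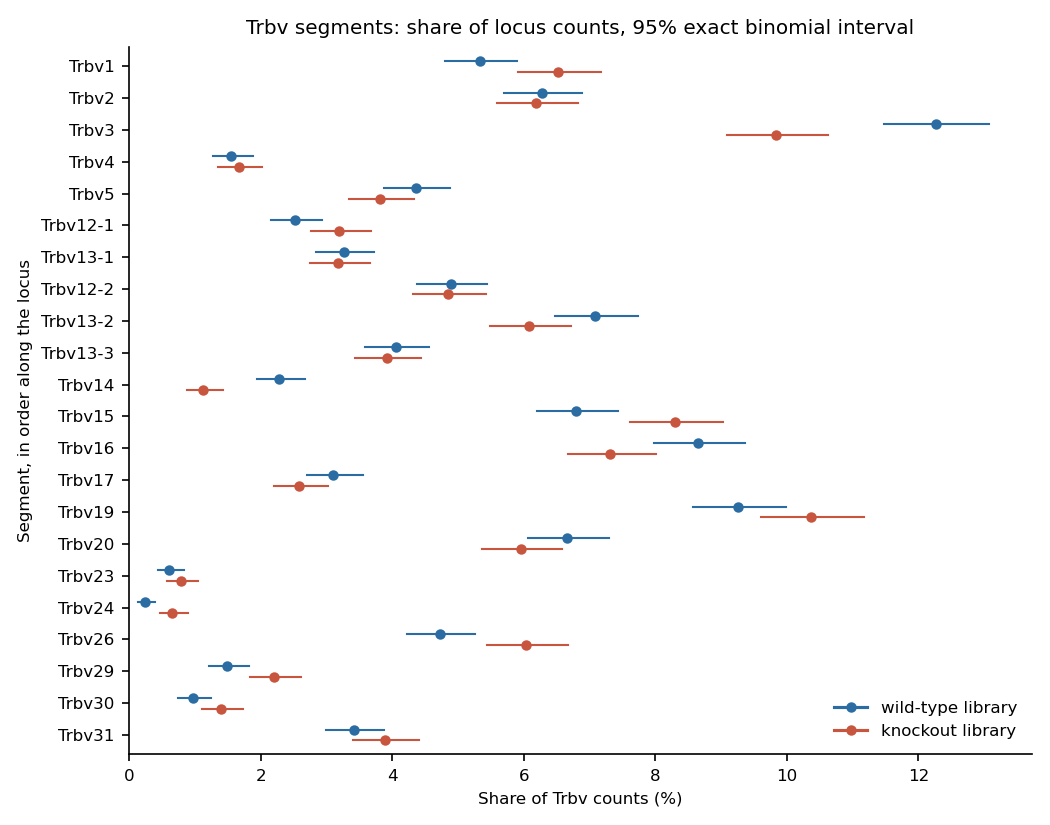
Share of Trbv counts (%) of the 22 compared Trbv segments in the wild-type (blue) and knockout (red) library, in chromosome order. Points are shares and bars exact binomial 95% intervals of 1 library each. Trbv3 is at 12.3% and 9.84% and Trbv14 at 2.29% and 1.13%, while the last 6 segments have red points to the right of blue.

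By position, the final group of Trbv rows in chromosome order (11 rows, 6 compared, from Trbv23 to Trbv31) held 11.6% (10.8 to 12.4) of counts in wild type and 15.1% (14.2 to 16.0) in knockout. The ratio was 1.30 (1.18 to 1.44), and all 6 compared members had a share ratio above 1, against 5 of the other 16. Trbv26 contributed most, with 310 and 359 counts and a ratio of 1.28 (1.10 to 1.49). Trbv29 had 98 and 131 counts, 1.48 (1.13 to 1.94), and Trbv30 had 64 and 83, 1.43 (1.02 to 2.02). Trbv31, the one V segment beyond Trbc2 and on the opposite strand, had 224 and 231 counts and a ratio of 1.14 (0.943 to 1.37), which includes 1. None of the 6 was called beyond 1.5-fold. The first group of 12 rows held 32.3% and 31.2%, and the middle 12 rows held 56.1% and 53.7%.

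Alpha counts were spread over more segments, 69 with counts in each library against 26 (wild type) and 25 (knockout) for Trbv. At fewer counts per segment, their shares were less precisely measured. The inverse Simpson index, the number of equally used segments that would give the same evenness, was 39.2 in wild type and 37.9 in knockout for Trav, and 15.4 and 16.0 for Trbv. The 5 segments with most counts held 22.0% (20.5 to 23.5) and 23.2% (21.2 to 25.4) of Trav counts, and 44.1% (42.9 to 45.3) and 42.4% (41.1 to 43.6) of Trbv counts. Both measures thus moved little between libraries at either locus. Trav counts per segment ran from 11 to 221 with a median of 59, against 55 to 1390 with a median of 506 for Trbv. Shares correlated across the 61 Trav segments with rho of 0.818 and r of 0.840.

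Trav14d-3-dv8 had the most Trav counts in knockout, 87 after 134 in wild type, shares of 5.41% (4.36 to 6.64) and 4.60% (3.87 to 5.42). Trav14-2 had the most in wild type, 150, and 59 in knockout, a share ratio of 0.713 (0.519 to 0.970). Per length, Trav14d-3-dv8 was highest in wild type at 16.2 FPKM, ahead of Trav7-4 at 15.7. In knockout Trav14-1 at 13.3 and Trav14d-3-dv8 at 13.1 led. The share ratio of Trav14d-3-dv8 was 1.18 (0.888 to 1.55), an interval that includes 1. Between libraries, the shares of 5 other widely used segments were closer than those of Trav14-2. Trav3-3 had 129 and 78 counts (4.43% and 4.85%) and Trav7-4 had 128 and 61 (4.39% and 3.80%). Trav9-4 had 99 and 65 counts (3.40% and 4.05%), Trav12-2 had 92 and 66 (3.16% and 4.11%), and Trav4-4-dv10 had 90 and 62 (3.09% and 3.86%). The share ratios of these 5 ranged from 0.864 to 1.30, each with an interval that includes 1.

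By share, 3 of 61 Trav segments were called higher (4.92%) and 1 lower (1.64%). Over the 5124 genes in their count range, 10.2% were called higher and 14.5% lower, by level and not by share. All 3 segments called higher lie in the last 42 rows of the locus, nearest the J segments. These rows hold 31 of the 61 compared segments, of which 12 had a share ratio above 1 and 19 below. Trav15-2-dv6-2, at chr14:53649404-53649994, had 18 counts in wild type, 0.618% (0.367 to 0.975), and 38 in knockout, 2.37% (1.68 to 3.23). Its share ratio was 3.83 (2.13 to 7.13). Trav15-1-dv6-1, at chr14:53559632-53560247, had 14 counts, 0.480%, and 27 counts, 1.68%, a ratio of 3.50 (1.77 to 7.22). Both can join to alpha or delta chains, and they were the only Trav15 rows with counts. Summed, Trav15 held 1.10% (0.752 to 1.55) and 4.05% (3.14 to 5.13), a ratio of 3.68 (2.38 to 5.81).

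Trav14-1, at chr14:53554022-53554558, lies beside Trav15-1-dv6-1. It had 63 counts in wild type, 2.16% (1.67 to 2.76), and 77 in knockout, 4.79% (3.80 to 5.95), a ratio of 2.22 (1.57 to 3.14). Since the locus total was lower, the level ratios were smaller: 2.63 (1.46 to 4.89) for Trav15-2-dv6-2, 2.40 (1.22 to 4.96) for Trav15-1-dv6-1 and 1.52 (1.08 to 2.16) for Trav14-1. None of these was called on the level scale, although each interval lies above 1. The Trav14 subgroup as a whole held 17.6% and 18.5% of counts, with Trav14-2, the immediate neighbour of Trav15-2-dv6-2, on the opposite side of 1. A large part of the sequence of these segments is their own: 95.1% of 50-base stretches in Trav14-1, 92.9% in Trav15-1-dv6-1 and 61.7% in Trav15-2-dv6-2 occur in no other gene's transcript.

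The segment called lower, Trav16d-dv11 at chr14:53047287-53047821, had 29 counts in wild type and 2 in knockout. Its share went from 0.995% (0.668 to 1.43) to 0.124% (0.0151 to 0.449), a ratio of 0.125 (0.0145 to 0.494). Its copies moved differently. Trav16n had 75 and 38 counts, a share ratio of 0.919 (0.605 to 1.38), and Trav16 had 42 and 42, a ratio of 1.81 (1.15 to 2.85). Summed over the 3 copies the Trav16 share was 5.01% and 5.10%, a ratio of 1.02 (0.767 to 1.34). In Trav16d-dv11, 37.2% of 50-base stretches are its own, the rest being shared with Trav16 or Trav16n, as the few capitals in the sequences show. The division of reads among the 3 copies is therefore uncertain. Its neighbour among the compared rows, Trav13d-4, had 14 and 1 counts, a share ratio of 0.130 (0.00306 to 0.851) that was not called. The next, Trav14d-3-dv8, did not share the difference.

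**Figure D4:**
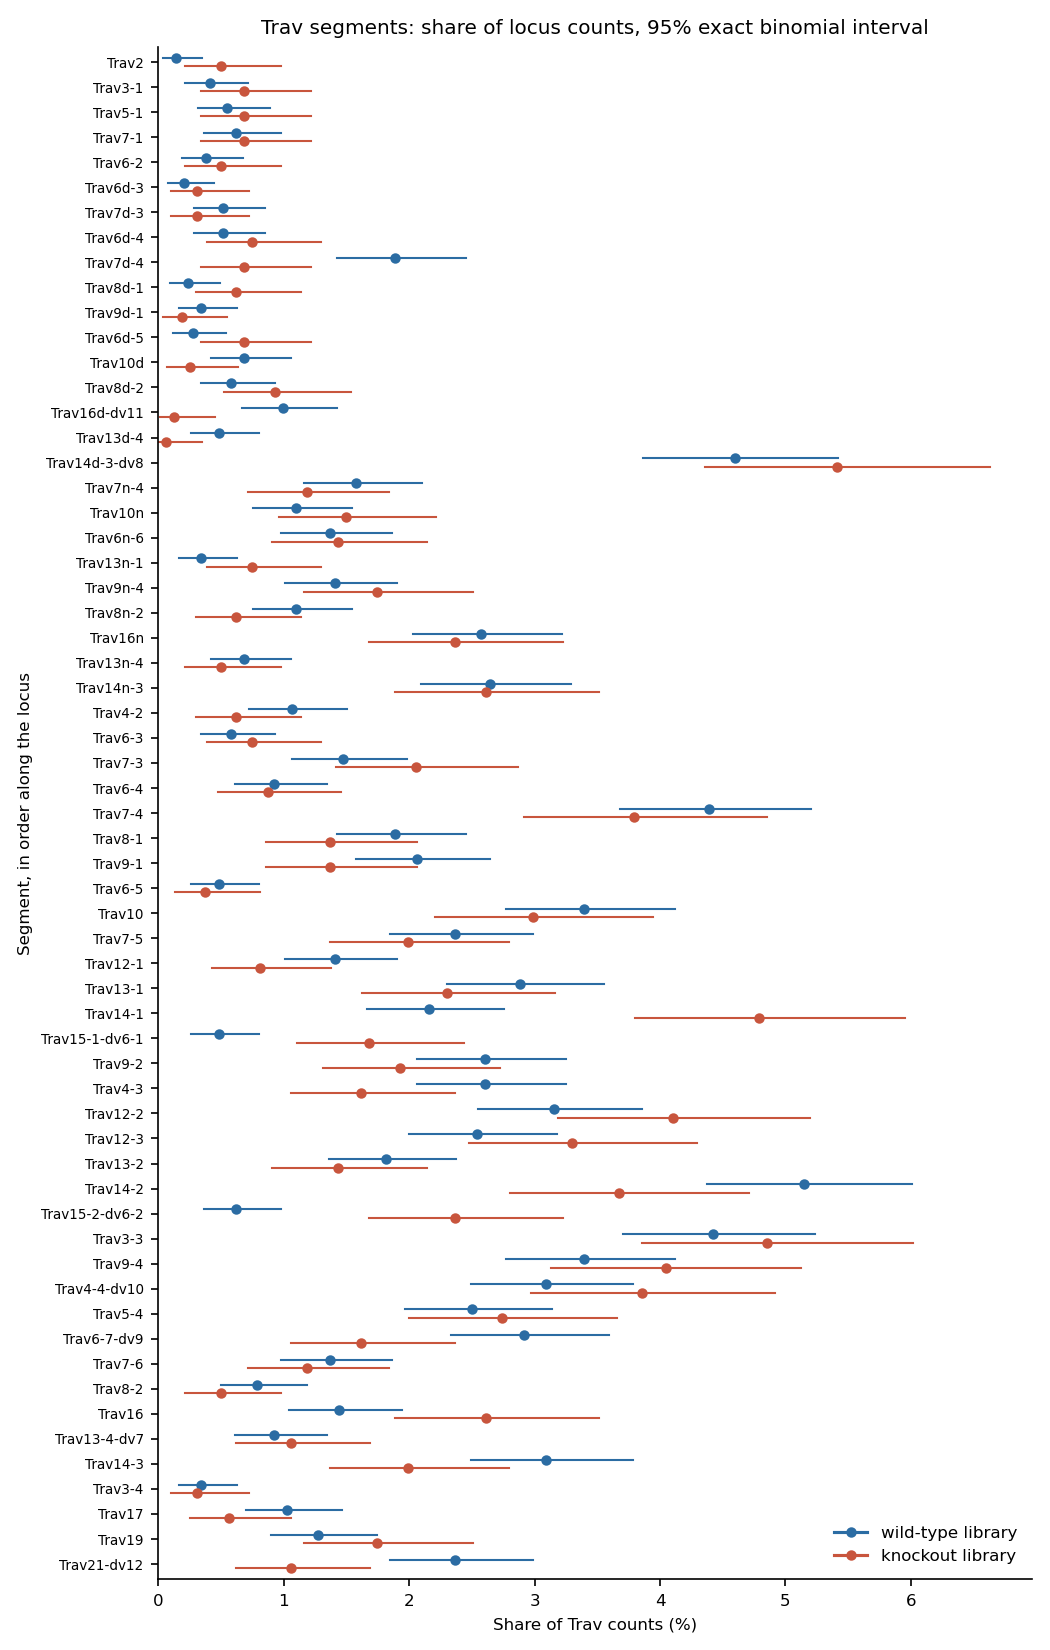
Share of Trav counts (%) of the 61 compared Trav segments in the wild-type (blue) and knockout (red) library, in chromosome order from top to bottom. Points are shares and bars exact binomial 95% intervals of 1 library each. For Trav14-1, Trav15-1-dv6-1 and Trav15-2-dv6-2 the red point lies to the right of the blue bar, and for Trav16d-dv11 to the left.

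Grouped by position, the Trav shares hardly differed. The first 43 rows in chromosome order held 7.55% (6.62 to 8.57) of counts in wild type and 8.77% (7.44 to 10.3) in knockout, the next 43 rows held 23.3% and 22.9%, and the last 42 rows, nearest the J segments, held 69.1% (67.4 to 70.8) and 68.3% (66.0 to 70.6). In the Traj segments the order was likewise uneven and alike, though whether their counts came from joined segments alone was not tested. Those nearest the V segments, Traj61 to Traj42, held 6.39% (3.54 to 10.5) and 6.90% (3.36 to 12.3) of Traj counts, while Traj21 to Traj1, nearest Trac, held 73.5% (67.2 to 79.2) and 70.3% (62.2 to 77.6). The copied blocks differed as little. Rows marked d held 11.3% and 10.6% of Trav counts, rows marked n 13.2% and 13.0%, and rows without a letter 75.5% and 76.4%. The 8 compared dv segments held 16.0% (14.7 to 17.4) and 17.2% (15.4 to 19.1). Of them 2 were called higher and 1 lower, where 3 and 1 of all 61 compared Trav segments were called.

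**Figure D5:**
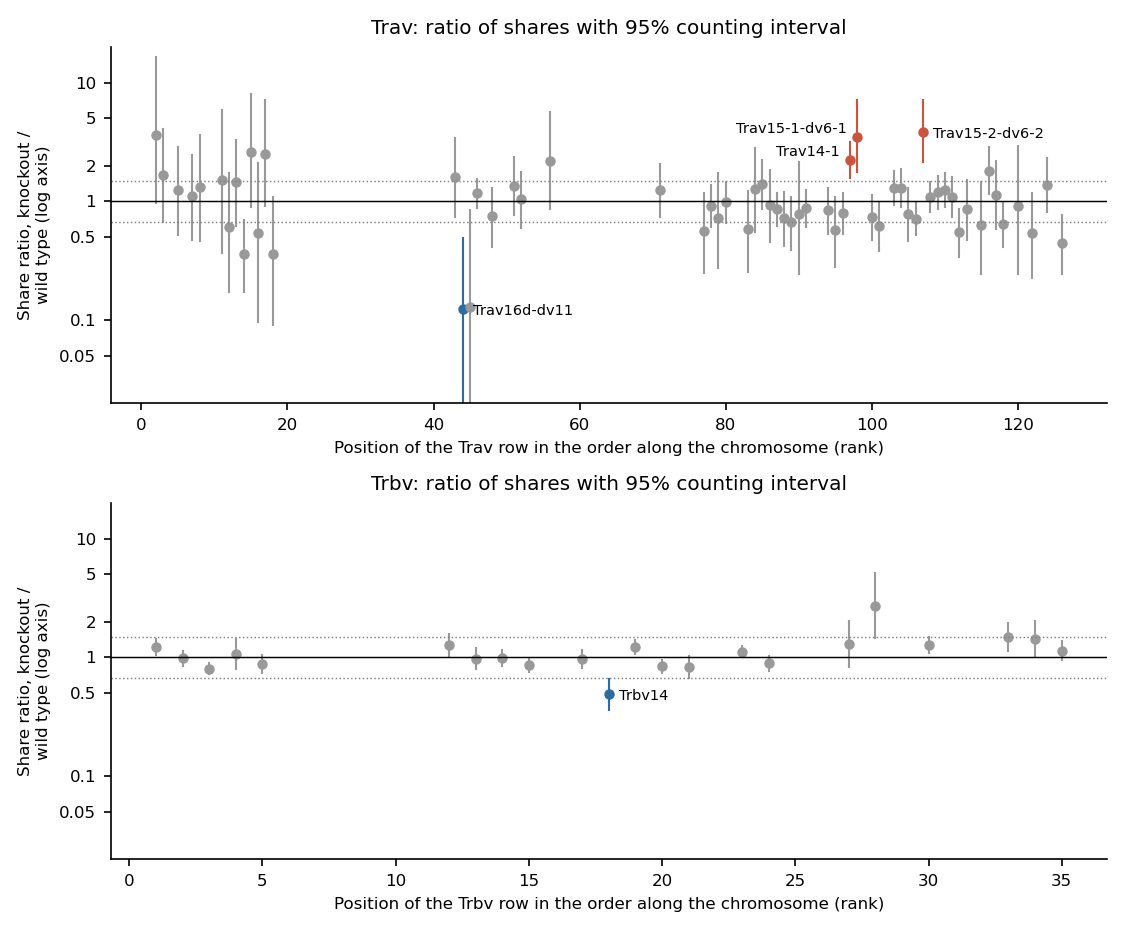
Ratio of a segment's share of its locus, knockout over wild-type library (log axis), against its rank in chromosome order, for Trav (top) and Trbv (bottom). Points are ratios, bars 95% counting intervals clipped at the panel edge, red marks segments called higher, blue called lower, and dotted lines 1.5-fold. The 3 red Trav points lie among the last 42 ranks, as do 31 of the 61 compared Trav segments. Trbv14 is the 1 coloured Trbv point, and the last 6 Trbv points lie above 1.

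Pseudogenes contributed little. Of 20 Trav pseudogenes 1, Trav8-2, passed the count minimum, and pseudogenes together held 1.03% and 1.06% of Trav counts. Of 13 Trbv pseudogenes only Trbv24 passed, and together they held 0.335% (0.210 to 0.507) and 0.757% (0.552 to 1.01).

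Segments of receptors with a fixed alpha chain had few or no assigned counts. Trav11 and Trav11d, which NKT cells join to Traj18, had 0 counts in both libraries, but no 50-base stretch of either is its own. Taking 3 counts as the most that a count of 0 allows, the limit would be 0.103% of Trav counts in wild type and 0.187% in knockout. It holds only for reads that can be assigned, so it does not bound the use of Trav11 or Trav11d. Traj18 had 4 and 2 counts, and Zbtb16, the transcription factor of these innate-like T cells, 5 and 3. Trav1, which mucosal-associated invariant T cells join to Traj33, had 3 and 6 counts and Traj33 had 1 and 1. At this depth no difference was detectable in any of these.

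Gamma and delta chain transcripts were rare beside alpha and beta. Trdv1 had 37 and 10 counts, 68.5% (54.5 to 80.5) and 34.5% (17.9 to 54.3) of Trdv counts. Trdv2-2 had 14 and 15, or 25.9% (15.0 to 39.7) and 51.7% (32.5 to 70.6). The share ratios were 0.503 (0.223 to 1.03) and 2.00 (0.898 to 4.46), opposite in direction. Both ratio intervals include 1, but they treat the locus totals as fixed. That makes them too wide where a segment is much of its locus total. The binomial intervals of the Trdv1 shares do not overlap, while those of the Trdv2-2 shares do. By level the ratios were 0.337 (0.149 to 0.690) for Trdv1 and 1.33 (0.60 to 2.98) for Trdv2-2, neither of them called. Trdv2-2 overlaps Gm43647 and is similar to Trdv2-1, so that 47.4% of its stretches are its own. Trdc, the delta constant region, had 139 and 117 counts, a level ratio of 1.05 (0.813 to 1.35).

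Trgv2, the only gamma V row under the Trgv name, had 29 and 12 counts, 1.60 and 0.825 CPM, a level ratio of 0.515 (0.240 to 1.04). Its share is 100% by construction. With the 5 rows named Tcrg-V added, of which 3 had counts (12 in wild type and 1 in knockout together), Trgv2 held 29 of 41 gamma V counts in wild type and 12 of 13 in knockout. The gamma constant genes went the other way. Together they had 114 and 209 counts, a ratio of 2.28 (1.81 to 2.89) that was called higher, with Tcrg-C2 at 28 and 86 counts and Tcrg-C4 at 22 and 46. Of 7 measured genes of the fixed gamma-delta T cell list 2 were called higher, both of them these gamma constant genes, and 3 lower: Cd163l1 (28 and 5 counts), 5830411N06Rik (37 and 0) and Blk (158 and 30). The background was again 9.58% higher and 12.3% lower. The list's summed level was 26.4 and 25.5 CPM.

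The genes that make and join the breaks in V(D)J recombination were measured for 14 of 16 members, with 0 called higher and 3 lower, where 9.58% and 12.3% of the 13464 genes were called, and a median log2 ratio of -0.03. Rag1, a subunit of the recombinase, had 62 and 10 counts, a ratio of 0.201 (0.0918 to 0.395). Its partner Rag2 had 0 counts in both libraries. Dntt, the enzyme that adds untemplated bases at the junctions, had 41 and 8 counts, 0.243 (0.0984 to 0.525). Hmgb2, a DNA-bending protein that assists the recombinase and is also abundant in dividing cells, had 6360 and 1369 counts, 0.268 (0.253 to 0.284). At the other end, the end-joining genes Xrcc4 and Lig4 had ratios of 1.57 (1.28 to 1.93) and 1.47 (1.19 to 1.81), not called. Rag1 and Dntt were low in both libraries, at no more than 3.42 and 2.26 CPM. The 5 B cell markers moved with them in the same direction, and the part of B cells in the Rag1 and Dntt counts was not tested. In the fixed thymocyte list, Rag1 and Dntt were themselves the 2 genes called lower of 5 measured. Its other measured genes were not called: Themis at 0.806 (0.726 to 0.895), Cd1d1 at 1.625 (1.46 to 1.81) and Arpp21 at 2.42 (1.335 to 4.54). The part of thymocytes was likewise not tested.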

How the data were processed

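The deposited tables hold, per gene, counts of reads and the authors' FPKM values for 1 library per genotype. TopHat, HTSeq and the mm10 build are named in the submitters' processing notes. The sources used here do not say how reads matching several genes were counted, and the TruSeq RNA v2 kit of the labels' protocol does not mark strand. Members and gene lists were chosen with earlier results of these data known.

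Counts were scaled with TMM (edgeR 4.0.16), and FPKM was used to order segments by length-scaled level and as an alternative to count shares. Segments with 10 or more counts over both libraries were compared. Shares have exact Clopper-Pearson 95% intervals and ratios exact conditional-binomial ones (scipy 1.17.1). A call needed the whole interval beyond 1.5-fold. The rule was tested on simulated Poisson counts scaled to library totals. These held no spread between replicate libraries and no locus shares, so they do not show how often calls by share err. No test across libraries was possible with 1 per genotype. List genes reaching 1 CPM in either library counted as measured. Median log2 ratios of level add a prior of 0.5 counts.

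All 170 rows matched GENCODE M21, the source of coordinates, sequences and 50-base stretches. Named segments were the 8 with the largest mean share of Trav and of Trbv, up to 6 called at each end, all Trdv and Trgv rows past the minimum, and Trav11, Trav11d and Trav1. Segments named outside this rule (Trbv24, Trbv26, Trbv29 to Trbv31, Trav16, Trav16n, Trav13d-4 and those called by level) were chosen after their values were seen. Alternatives were other count minimums, call rules, locus totals and scalings (DESeq2 1.42.0 size factors among them), subgroup sums and, added after the data were seen, FPKM shares, a wider gamma total and 75-base stretches.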

Additional observations from a re-analysis of the deposited data

How the results depend on the processing

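Locus totals kept their direction under plain library totals, DESeq2 size factors, the count minimum and without the most used segment (Trav 0.681 to 0.687, Trbv 1.12 to 1.16). The calls by share did depend on the rule. Segments called higher in Trav, 3 as reported, numbered 2 at a minimum of 50 counts (without Trav15-1-dv6-1), 2 scaled to Trac (without Trav14-1, at 2.09), 4 where the interval need only exclude a ratio of 1, 1 beyond 2-fold (Trav15-2-dv6-2), 1 when copies were summed by subgroup (Trav15) and 0 by level. Segments called lower in Trav, 1 as reported, numbered 0 at a minimum of 50 counts, 0 by subgroup, 2 scaled to Trac, 6 by level and 8 with the interval excluding 1. In Trbv, the 0 called higher became 1 by level and 7 with the interval excluding 1, and the 1 called lower became 0 beyond 2-fold, 0 by level and 4 with the interval excluding 1. Summing by subgroup gave inverse Simpson indices of 10.6 and 10.95 for Trav and 12.4 and 13.05 for Trbv, since fewer units are counted; for Trav the library with the larger index was then the knockout, as reported the wild type. The cause of the other changes was not tested. No called segment changed direction. Of the named segments not called, those with a share ratio on one side of 1 and a level ratio on the other were Trav12-2 (1.30 and 0.894), Trav14d-3-dv8 (1.18 and 0.809), Trav3-3 (1.10 and 0.753), Trav4-4-dv10 (1.25 and 0.858), Trav9-4 (1.19 and 0.818), Trbv2 (0.986 and 1.11) and Trbv20 (0.894 and 1.01). No paired analysis was possible because each genotype is 1 library and the labels give no shared replicate number. Depth limits the loci unequally: 3 counts are 0.0457% and 0.0505% of the Trbv counts of the libraries, 0.103% and 0.187% for Trav, 5.56% and 10.3% for Trdv and 10.3% and 25% for Trgv2.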

Other observations

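The first cluster of beta joining segments held the larger part of their counts in both libraries. Trbj1 segments held 57.3% (52.0 to 62.5) of Trbj counts in wild type and 60.3% (55.4 to 65.1) in knockout, and all 14 Trbj rows had counts. Trbj1-6 had the most counts in each, 50 and 56. Among Traj segments Traj3 had 24 and 9 counts, Traj6 had 20 and 11 and Traj2 had 17 and 12, all near Trac. Whether Traj and Trbj counts came from joined segments alone was not tested. With 219 and 145 Traj counts in all, single Traj segments could not be compared at this depth. These genes were named after their values were seen.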
